A study of Rattus norvegicus with 16 samples.

Results

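Pre-mRNA splicing factor genes were followed in 2 tissues of rats with a brain injury or a sham operation. The members are the genes whose symbol starts with Srsf, Hnrnp, Sf3a, Sf3b, Snrp or Prpf, without Snrpn, where a row of the table names that gene alone. If more than 1 row carried a symbol, the one of highest mean was used. This gave 52 genes among the 26031 rows for the hippocampal CA1 field and 53 among the 24779 rows for white blood cells (WBC). Together these are 54 different genes, of which 51 were in both tables.

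All animals were male Sprague Dawley rats that had an operation, either fluid percussion injury, a model of traumatic brain injury (TBI), or a sham procedure, and a learning test 1 week later, before their tissue was taken. Poly-A RNA was sequenced from dissected CA1 and from WBC isolated from blood, in 4 sham and 4 TBI libraries of each tissue. The age of the rats is not given, and the labels do not say whether each library of a group is a separate animal, so a p-value reflects the spread between libraries, which may be technical. Both tissues are mixtures of cells, and in such bulk samples fewer cells of a type and less RNA per cell cannot be told apart. Levels are FPKM, fragments scaled to the length of the transcript and to the size of the library, in 1 table per tissue. The tables were normalized separately, so that levels set across tissues are descriptions only, and no library's depth can be read from them.

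Splicing removes introns from a transcript in a stepwise assembly on RNA. Small nuclear ribonucleoproteins recognise the ends of the intron and the branch site. Most of them are a small RNA on a ring of Sm proteins, and the Snrp genes encode Sm proteins and other proteins of these particles. The SF3a and SF3b proteins hold the U2 particle at the branch site, and the Prpf proteins build, activate and remodel the spliceosome. SR proteins, encoded by Srsf genes, mostly bind exons and favour their inclusion. Heterogeneous nuclear ribonucleoproteins (hnRNPs) coat the transcript, and many of them favour skipping. SR proteins and hnRNPs therefore often act on the same exons in opposite ways, and brain and blood cells are both known for extensive alternative splicing.

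The promoters of 4 members on which the results turn are shown next. None of them passed the test described later. Prpf4b, Srsf7 and Srsf1 had higher means in injured than in sham WBC libraries, and Hnrnpl had a lower mean, with a difference that turned above 0 with quantile normalization. Each sequence is the 250 bases before the annotated start, 5′ to 3′ on the strand of the gene, from RefSeq on build GRCr8, which is not the rn5 build of the authors' tables. Capitals mark the letters CCAAT (the CCAAT box), GGGCGG (the GC box), CGGAAG (the ETS core), CATGCGC (the NRF1 core), TGACG (the CRE core) and TATAAA (the TATA box), searched on both strands. A GC box and an ETS core may share bases, as they do in Srsf7.
Prpf4b, chr17:30224921-30225170, minus strand: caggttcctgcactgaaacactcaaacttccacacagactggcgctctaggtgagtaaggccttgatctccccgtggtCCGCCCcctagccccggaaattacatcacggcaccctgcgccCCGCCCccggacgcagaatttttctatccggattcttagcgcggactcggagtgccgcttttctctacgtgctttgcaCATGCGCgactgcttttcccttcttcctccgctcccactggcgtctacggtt
Srsf7, chr6:20563802-20564051, plus strand: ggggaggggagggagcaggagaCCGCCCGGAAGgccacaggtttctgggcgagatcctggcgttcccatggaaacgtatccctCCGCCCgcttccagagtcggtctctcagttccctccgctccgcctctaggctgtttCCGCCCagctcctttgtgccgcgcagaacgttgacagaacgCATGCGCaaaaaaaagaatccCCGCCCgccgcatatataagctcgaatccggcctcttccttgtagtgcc
Srsf1, chr10:73336248-73336497, plus strand: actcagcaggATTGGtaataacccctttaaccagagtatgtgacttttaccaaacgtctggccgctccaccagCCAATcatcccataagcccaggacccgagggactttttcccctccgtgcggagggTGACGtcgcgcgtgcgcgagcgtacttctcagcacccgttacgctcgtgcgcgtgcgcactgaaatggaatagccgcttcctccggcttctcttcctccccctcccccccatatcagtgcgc
Hnrnpl, chr1:93228151-93228400, plus strand: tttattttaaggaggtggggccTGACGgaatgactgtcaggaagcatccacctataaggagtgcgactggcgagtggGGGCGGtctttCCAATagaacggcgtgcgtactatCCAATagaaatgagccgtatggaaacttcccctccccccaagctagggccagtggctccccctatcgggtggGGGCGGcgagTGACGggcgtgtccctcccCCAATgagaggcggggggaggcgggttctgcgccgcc

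The windows of Prpf4b and Srsf7 each held the GC box on the minus strand and 1 NRF1 core, with 2 GC boxes in Prpf4b and 4 in Srsf7. Srsf1 held 2 CCAAT boxes and 1 CRE core, and Hnrnpl held 3 CCAAT boxes, 2 GC boxes and 2 CRE cores. No TATA box letters were found in these 4 windows. Of the 54 members, 52 matched the promoter table by symbol, with 55 start sites in all. Sf3b2 was not among them. The ETS core was in 52.7% of the members' windows and in 13.9% of the 33469 windows of all genes. The CRE core was in 41.8% against 18.2%, the GC box in 49.1% against 30.5%, the CCAAT box in 47.3% against 34.0% and the NRF1 core in 9.09% against 3.26%. The TATA box was in 9.09% of the members' windows and in 12.9% of all. The median GC content was 58.0% over the members' windows and 51.2% over all windows, and the part of base composition in the shares above was not tested. A match describes the letters and is neither a bound site nor a cause.

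The libraries carried markers of their labels, though not those alone. In CA1, the excitatory neuron genes Slc17a7 and Camk2a averaged 797 and 1686 FPKM in sham, while the leukocyte gene Ptprc averaged 0.768. Other leukocyte genes stood higher in CA1 sham, such as Coro1a at 80.4 and Laptm5 at 13.5 FPKM. Fibcd1, another excitatory neuron marker, was at 0 in every CA1 library. Dentate and CA3 markers were present as well, such as C1ql2 at 103 and Prox1 at 16.0 FPKM in sham. Summed choroid plexus markers ran from 18.4 to 1309 FPKM in sham and from 179 to 2735 in TBI, highest in TBI 1. In WBC, Ptprc averaged 289 and the T cell gene Cd3e 125 FPKM in sham, while the neuronal genes Neurod6 and Rbfox3 averaged 0.252 and 0.0493. Other genes of the neuronal lists stood higher in WBC sham, with Nrgn at 959, Npy at 125 and Camk2a at 5.24 FPKM. Pearson's r between libraries on the log2 scale, across rows, was 0.967 to 0.981 between CA1 libraries and 0.910 to 0.968 between those of WBC. Along the main axis of variation, WBC TBI 1 lay at 57.0, away from the other TBI libraries at 4.36 to 19.1 and from sham at -32.9 to -13.3. In CA1, sham 1 at 27.4 and TBI 1 at 28.4 lay apart from the other 6 libraries, at -19.4 to -1.77. Counts are therefore also given without these libraries.

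Injured and sham libraries were compared by limma, 1 tissue at a time, on log2(FPKM + 0.5), over every row with a mean of at least 1 FPKM and an OK status in every library. Of the members, 49 were tested in CA1 and 49 in WBC. Rows for the members left out held too little signal, apart from Srsf3 in WBC (40.9 FPKM in sham and 42.4 in TBI), for which the authors' software did not report an OK status in every library. Hnrnpab was listed at 0 in every library of both tissues. Snrpc averaged 0.333 FPKM in CA1 sham and 0.703 in WBC sham, Snrpg 0.411 in CA1 sham and Snrpe 0.188 in WBC sham. Genes such as Snrpe, Snrpg and Hnrnpa1 belong to families with near-identical processed copies in mammalian genomes, so their fragments are assigned with less certainty and a row may miss part of a gene's signal. Several genes of the same families share a row with another gene and are not members, among them Hnrnpm and Snrpa1 in CA1, Sf3a2 in WBC and Hnrnpc in both.

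No member passed the threshold of 0.05 on the Benjamini-Hochberg adjusted limma p in either tissue. Over all rows the percentages called were 0.00683% of 14637 in CA1 and 0% of 13413 in WBC. In CA1, no member was at an unadjusted limma p under 0.05 in either direction, where 2.54% of all rows were higher and 2.6% lower at that level. In WBC, 8 of 49 members were at an unadjusted limma p under 0.05 and higher in TBI, and 0 of 49 were lower, where 7.82% of all rows were higher and 12.5% lower. The 8 genes were Prpf4b, Prpf40b, Srsf9, Srsf7, Srsf1, Hnrnpr, Prpf3 and Srsf10. Without TBI 1, 6 members were higher at that level. With quantile normalization 15 members were, beside 11.3% of all rows. Groups did not overlap for 7 WBC members with TBI higher and for 1 with TBI lower, where 5.61% and 8.63% of all rows did so. In CA1 they did not overlap for 1 member with TBI higher and for 0 with TBI lower, where 1.28% and 1.6% of all rows did so. The median difference over the members was -0.01 in WBC and 0.00 in CA1 on the log2 scale, and over all rows it was 0.00 in WBC and -0.01 in CA1. In WBC 23 members were higher and 26 lower, and in CA1 25 were higher and 24 lower, where 49.6% and 46.7% of all rows were higher. With quantile normalization 44 WBC members were higher and 5 lower, with a median of 0.12, beside 58.2% of all rows higher, while in CA1 24 were higher and 25 lower.

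**Figure D1:**
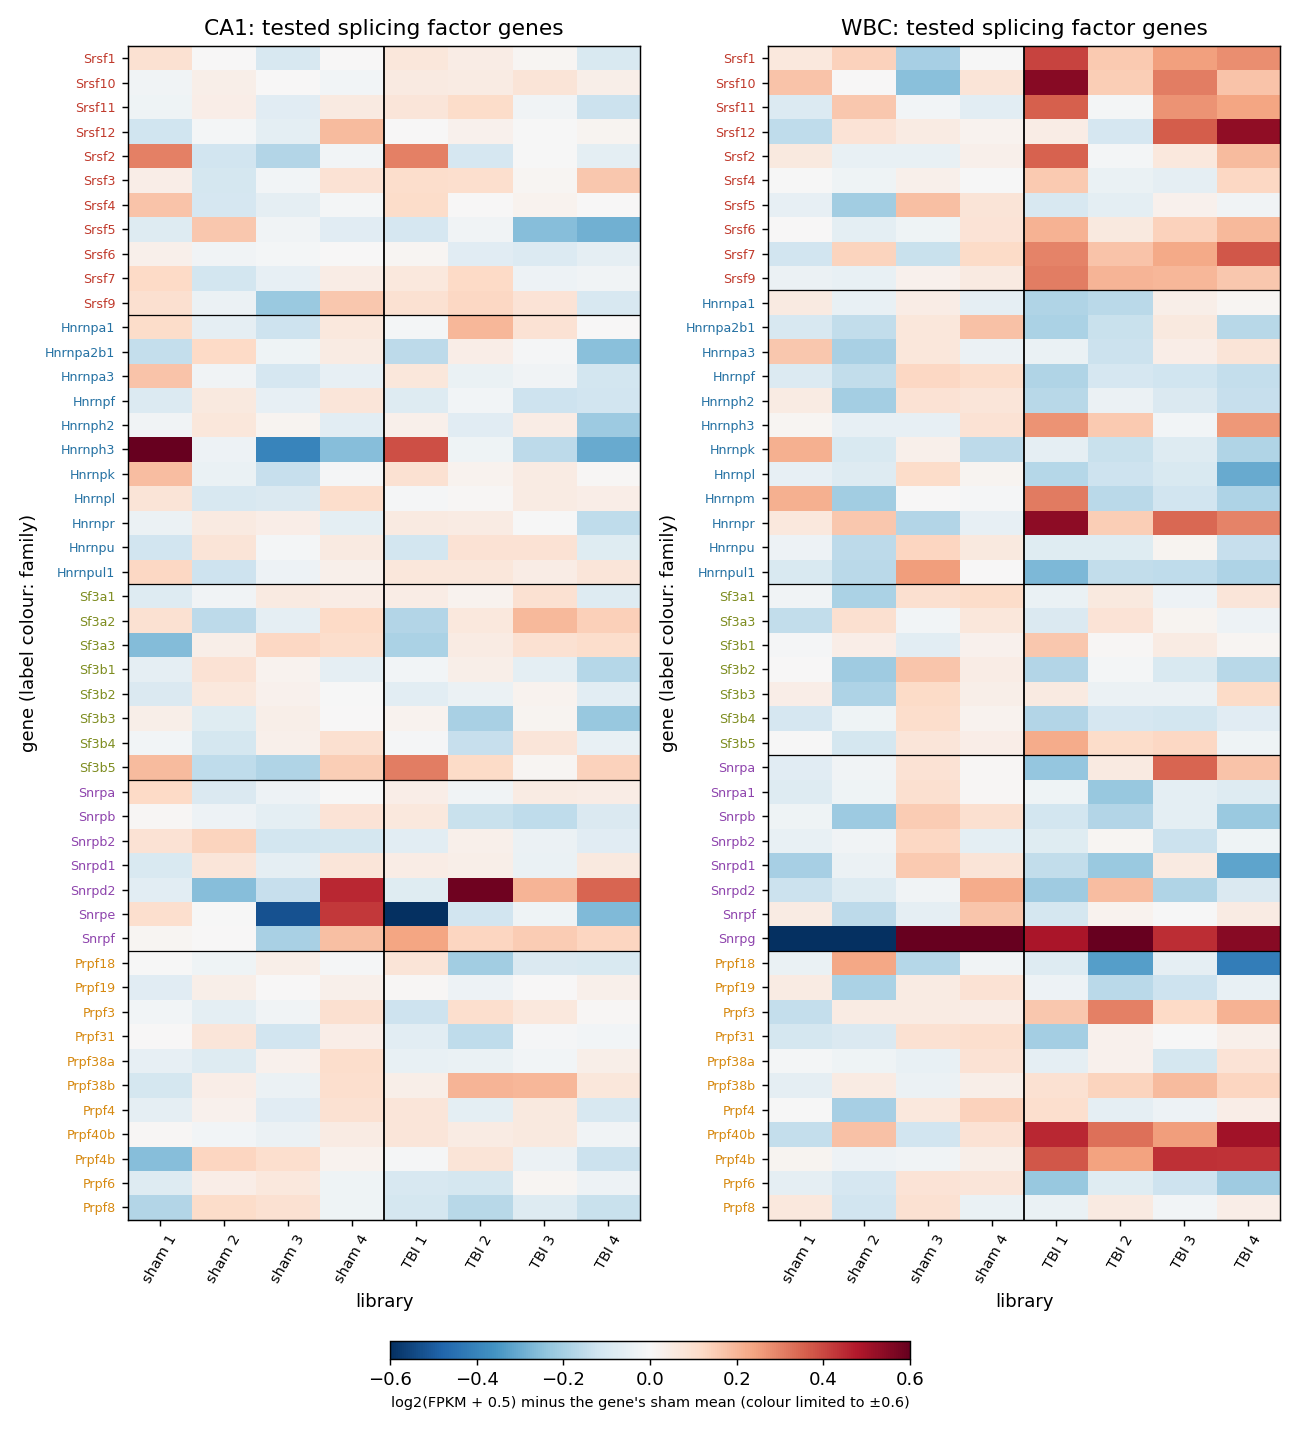
Difference of the tested members, all but 1, from their own sham means, on the log2(FPKM + 0.5) scale, with 1 row per gene and 1 column per library; gene names are coloured by family and colours stop at 0.6 either way. In WBC the Srsf rows are mostly red in the TBI columns and the Hnrnp rows mostly blue, apart from Hnrnpr and Hnrnph3 (with quantile normalization, not drawn, all 12 Hnrnp genes were higher), while CA1 shows no such split. Snrpg in WBC is blue in sham 1 and sham 2 and red in the other 6 libraries.

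The SR protein genes had the highest median difference of the families in WBC. Of the 10 Srsf genes tested, 9 were higher and 1, Srsf5, was lower, with a median log2 difference of 0.21. Of these, 4 were at an unadjusted limma p under 0.05 and higher, beside 7.82% of all rows, and 3 had groups that did not overlap with TBI higher, beside 5.61%. With quantile normalization all 10 were higher, with a median of 0.39, and without TBI 1 the split was again 9 and 1, with a median of 0.18.

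Srsf9, a small SR protein with 2 RNA recognition motifs, was at 22.4, 22.3, 23.4 and 23.9 FPKM in sham 1 to 4 and at 28.6, 26.6, 26.5 and 25.8 in TBI 1 to 4. All TBI libraries lay above all sham libraries, which were close together. The means were 23.0 ± 0.803 FPKM in the sham libraries (SD, n = 4) and 26.8 ± 1.22 in the injured ones, a log2 difference of 0.22 ± 0.06 (SE) that did not pass (limma adjusted p = 0.144). Srsf7, an SR protein that also carries a zinc knuckle, was at 42.0, 50.0, 41.4 and 49.2 FPKM in sham 1 to 4 and at 56.0, 51.2, 53.2 and 58.9 in TBI 1 to 4. TBI 2 was the lowest of the injured libraries and still above the highest sham library. Srsf7 differed by 0.27 ± 0.09 (SE) on the log2 scale (limma adjusted p = 0.165). Srsf1, the founding SR protein, was at 55.2, 58.2, 45.9 and 52.6 FPKM in sham 1 to 4 and at 70.2, 58.8, 62.6 and 64.2 in TBI 1 to 4. Again TBI 2 lay just above the highest sham library, and the other injured libraries lay clear of sham. The log2 difference was 0.27 ± 0.09 (SE) (limma adjusted p = 0.172).

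Srsf10, whose activity is set by its phosphorylation, was at 16.0, 14.2, 11.8 and 15.0 FPKM in sham 1 to 4 and at 20.9, 15.8, 17.6 and 16.0 in TBI 1 to 4. The groups overlapped, since TBI 2 lay below sham 1, and the low value of sham 3 and the high value of TBI 1 widened both groups. Srsf10 differed by 0.29 ± 0.12 (SE) on the log2 scale (limma adjusted p = 0.228). Srsf11 was at 64.5, 76.7, 67.7 and 65.5 FPKM in sham 1 to 4 and at 88.0, 67.8, 82.5 and 80.8 in TBI 1 to 4, with sham 2 inside the range of TBI. Srsf6 was at 84.6, 80.9, 83.0 and 89.2 FPKM in sham 1 to 4 and at 97.7, 87.9, 92.9 and 96.6 in TBI 1 to 4, and TBI 2 alone lay inside the range of sham. Their log2 differences were 0.21 and 0.15. Srsf2, which has roles in exon choice and in transcription, averaged 226 FPKM in sham and 251 in TBI (log2 0.15), and Srsf12, the close relative of Srsf10, averaged 5.17 FPKM in sham and 6.14 in TBI (log2 0.21). Both had overlapping groups. The smallest differences of the family in WBC were 0.05 for Srsf4 and -0.04 for Srsf5. Srsf5 was the most abundant member of all per length in WBC, at 314 ± 36.1 FPKM in the sham libraries (SD, n = 4) and 304 ± 11.1 in the injured ones, and Srsf12 was the least abundant Srsf gene.

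In CA1 the same family stood close to sham. Of 11 Srsf genes tested, 9 were higher and 2 lower, with a median log2 difference of 0.03. Leaving out sham 3 turned that split to 4 higher and 7 lower. Srsf5 was again the most abundant of the family, at 93.6, 110.4, 97.4 and 94.2 FPKM in sham 1 to 4 and at 92.0, 97.2, 82.5 and 80.8 in TBI 1 to 4. TBI 3 and TBI 4 were the lowest, TBI 1 lay just below sham, and TBI 2 lay among the sham libraries. The log2 difference was -0.17 ± 0.08 (SE) (limma adjusted p = 0.891). Srsf3, the smallest SR protein, averaged 23.8 FPKM in sham and 25.5 in TBI (log2 0.10). Srsf10 had the only CA1 groups among the 49 tested members that did not overlap, at 16.3, 16.9, 16.5 and 16.3 FPKM in sham 1 to 4 and at 17.1, 17.1, 17.4 and 16.9 in TBI 1 to 4. Sham 2 and TBI 4 lay closest to each other. The size of that difference was only 0.05 ± 0.04 (SE) (limma adjusted p = 0.891). Srsf1, Srsf7 and Srsf9 differed in CA1 by 0.01, 0.03 and 0.05 on the log2 scale, all within the spread between libraries. Srsf2, Srsf4, Srsf11 and Srsf12 differed by 0.03, 0.03, 0.01 and 0.01, and Srsf6, the second gene with a lower mean, by -0.05.

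**Figure D2:**
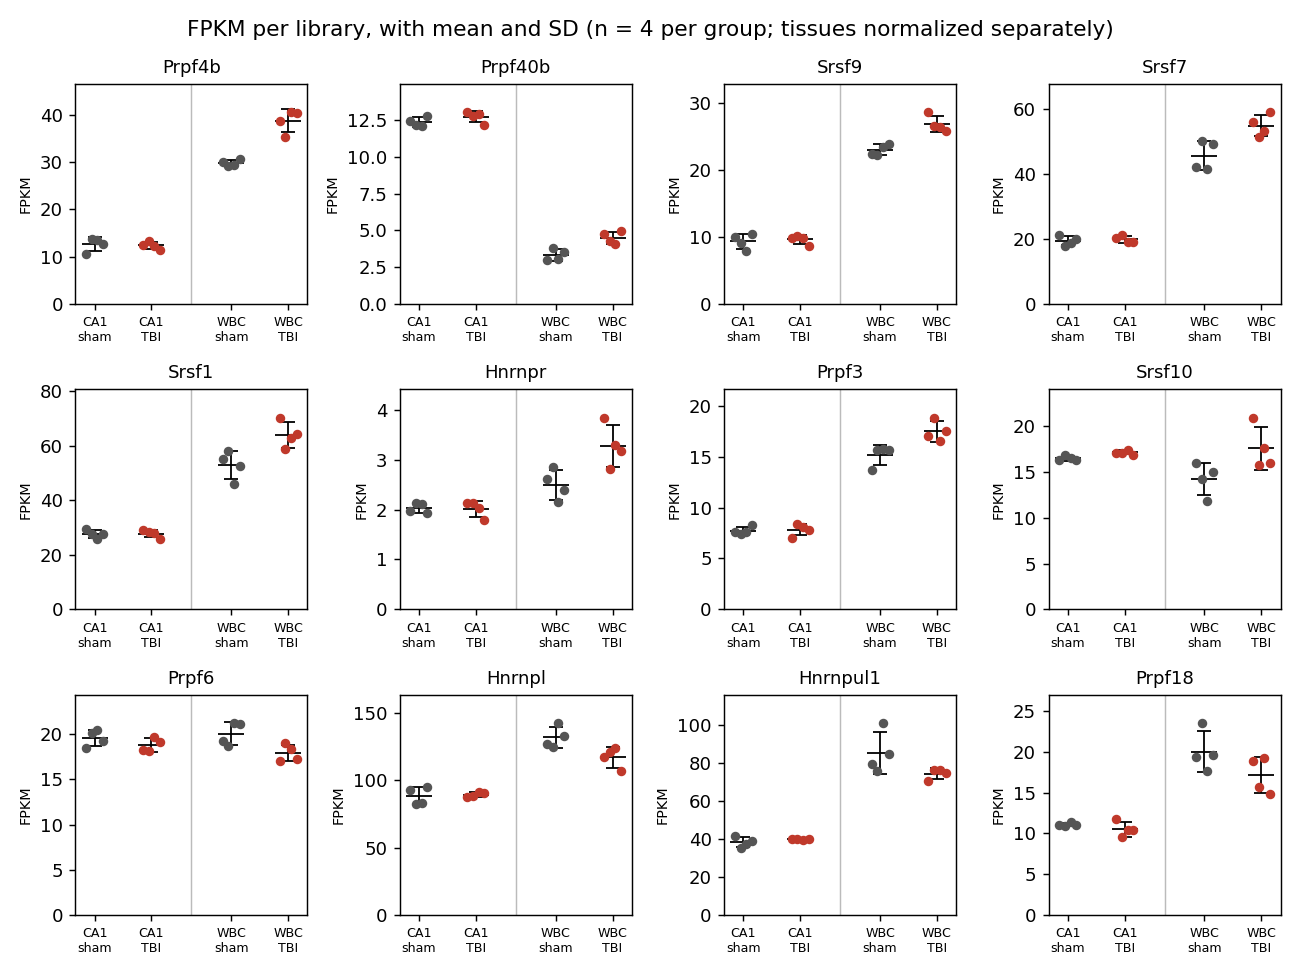
FPKM of 12 members in every library (points), with the mean and SD of each group of 4 libraries; the tables of the tissues were normalized separately, so heights are compared only within a tissue. The panels are the 8 members with the smallest limma p among those higher in WBC TBI and the 4 with the smallest p among those lower, and no group of CA1 stands clear of its sham libraries except Srsf10.

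The hnRNP genes lay on the other side in WBC. Of 12 tested, 10 were lower and 2, Hnrnpr and Hnrnph3, were higher, with a median log2 difference of -0.09, but with quantile normalization all 12 were higher, with a median of 0.12. Hnrnpl, which binds CA repeats and is known for silencing variable exons of Ptprc in lymphocytes, was at 127, 125, 142 and 133 FPKM in sham 1 to 4 and at 117, 121, 124 and 107 in TBI 1 to 4. All injured libraries lay below all sham libraries, by a narrow gap between TBI 3 and sham 2. The log2 difference was -0.17 ± 0.08 (SE) (limma adjusted p = 0.278), and with quantile normalization it was 0.13. Hnrnpl was also the most abundant hnRNP gene in WBC per length.

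Hnrnpul1, a relative of Hnrnpu, was at 79.3, 75.6, 101 and 84.6 FPKM in sham 1 to 4 and at 70.2, 76.2, 76.1 and 74.4 in TBI 1 to 4. Sham 3 was high, and sham 2 lay among the injured libraries. For Hnrnpul1 the log2 difference was -0.19 ± 0.10 (SE) (limma adjusted p = 0.321), against 0.06 with quantile normalization. Hnrnpf, which binds runs of G, was at 88.8, 85.0, 103 and 101 FPKM in sham 1 to 4 and at 83.0, 87.7, 86.7 and 85.2 in TBI 1 to 4, with sham 2 among the injured libraries. Its log2 difference was -0.14 (limma adjusted p = 0.394), against 0.12 with quantile normalization. The core hnRNP Hnrnpa1 averaged 68.2 FPKM in sham and 65.0 in TBI, and Hnrnpa2b1 averaged 70.4 FPKM in sham and 65.2 in TBI, both with overlapping groups. The remaining hnRNP genes with lower means were Hnrnpk, which binds runs of C, at 46.4 FPKM in sham and 42.8 in TBI (log2 -0.11), Hnrnph2 at 32.2 FPKM in sham and 29.8 in TBI (log2 -0.11) and Hnrnpu at 113 FPKM in sham and 108 in TBI (log2 -0.07). Hnrnpm and Hnrnpa3 differed by -0.04 and -0.01, and all 5 had overlapping groups. Hnrnpr, an RNA-binding protein related to Syncrip, went the other way, at 2.62, 2.85, 2.15 and 2.39 FPKM in sham 1 to 4 and at 3.84, 2.81, 3.29 and 3.17 in TBI 1 to 4. Sham 2 lay above TBI 2, so the groups overlapped. Hnrnpr differed by 0.33 ± 0.13 (SE) on the log2 scale (limma adjusted p = 0.195). It was among the least abundant hnRNP genes with a tested row, and Hnrnph3 stood lower still at 0.976 ± 0.0666 FPKM in the sham libraries (SD, n = 4) and 1.16 ± 0.148 in the injured ones.

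In CA1, 4 hnRNP genes were higher and 7 lower, with a median of -0.01. Leaving out TBI 4 turned this to 9 higher and 2 lower. Hnrnpu, a nuclear scaffold protein, was the most abundant there, at 123 ± 7.15 FPKM in the sham libraries (SD, n = 4) and 123 ± 8.98 in the injured ones. The hnRNP gene with the smallest p among those higher was Hnrnpul1, at 38.2 FPKM in sham and 39.8 in TBI (log2 0.06), and among those lower it was Hnrnpf, at 32.0 FPKM in sham and 30.2 in TBI (log2 -0.08). Hnrnpa1 differed by 0.07 and Hnrnpa2b1 by -0.09, and Hnrnpl by 0.02 on the log2 scale. Hnrnpk, Hnrnpa3, Hnrnph2 and Hnrnpr differed by 0.04, -0.03, -0.05 and -0.01, all with overlapping groups. Among these genes Hnrnph3 varied most between CA1 libraries, from 3.38 FPKM in sham 1 to 1.34 in sham 3.

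The SR and hnRNP genes were also set against each other within each WBC library. Each gene was set relative to its own sham mean on the log2 scale, and the family median was taken per library. The Srsf median was -0.02, -0.01, -0.02 and 0.04 in sham 1 to 4 and 0.30, 0.02, 0.21 and 0.19 in TBI 1 to 4. TBI 2 lay within the range of sham. The Hnrnp median was 0.03, -0.15, 0.07 and 0.01 in sham and -0.12, -0.13, -0.05 and -0.14 in TBI, with sham 2 as low as the injured libraries. A scaling factor shared by all genes of a library leaves their difference, Srsf minus Hnrnp, nearly unchanged, but quantile normalization is not such a factor. This difference was -0.05, 0.14, -0.09 and 0.03 in sham and 0.42, 0.15, 0.26 and 0.33 in TBI. All injured libraries lay above all sham libraries, though TBI 2 was only just above sham 2. No test is given, because the families were set against each other after their values were seen. The difference of the family medians of TBI minus sham was 0.30, and it was 0.24 to 0.35 with 1 WBC library left out and 0.27 with quantile normalization. With that normalization both medians lay above 0, at 0.39 for Srsf and 0.12 for Hnrnp, so the opposite signs were not kept. In CA1 the within-library difference ran from -0.04 to 0.00 in sham and from -0.05 to 0.06 in TBI, and the groups overlapped.

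**Figure D3:**
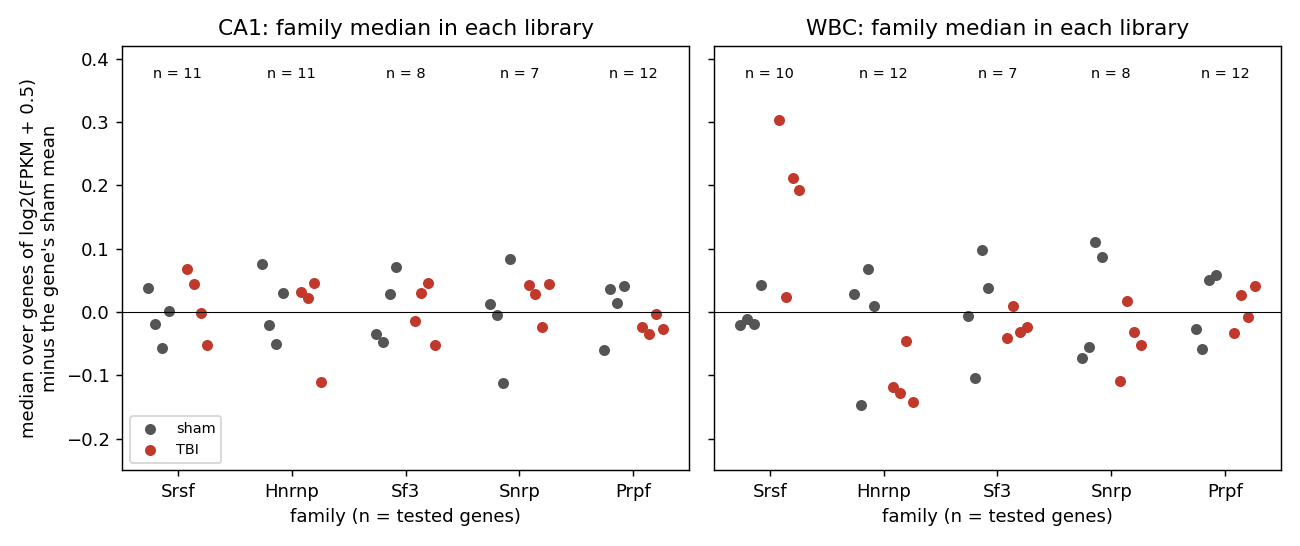
Median over the tested genes of each family of the log2(FPKM + 0.5) difference from the gene's sham mean, per library, for CA1 and WBC. In WBC the Srsf points of TBI 1, 3 and 4 sit between 0.19 and 0.30, above sham at -0.02 to 0.04, with TBI 2 at 0.02, while the Hnrnp points of TBI sit between -0.14 and -0.05, although their median difference was above 0 with quantile normalization.

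The branch site proteins had the narrowest range of log2 differences of the families in WBC, from -0.11 to 0.11. Of 7 Sf3 genes tested, 4 were higher and 3 lower, with a median of 0.01, though all 7 were higher with quantile normalization, with a median of 0.09, and none was at an unadjusted limma p under 0.05 in either direction. Sf3b1, the large subunit that contacts the branch site, was the most abundant, at 105, 109, 101 and 108 FPKM in sham 1 to 4 and at 118, 106, 109 and 107 in TBI 1 to 4. The groups overlapped, and the log2 difference was 0.06. Sf3b4, a subunit with RNA recognition motifs, was at 28.0, 29.5, 32.4 and 30.5 FPKM in sham 1 to 4 and at 26.5, 28.0, 27.8 and 28.7 in TBI 1 to 4. Sham 1 lay among the injured libraries, and the log2 difference was -0.11 ± 0.07 (SE) (limma adjusted p = 0.376), or 0.00 with quantile normalization. Sf3a1 was the least abundant, at 15.7 ± 1.53 FPKM in the sham libraries (SD, n = 4) and 15.8 ± 0.670 in the injured ones. Sf3b2 averaged 48.2 FPKM in sham and 44.5 in TBI (log2 -0.11) and Sf3b5 62.8 FPKM in sham and 67.8 in TBI (log2 0.11), while Sf3a3 and Sf3b3 differed by 0.00 and 0.02. The row that Sf3a2 shares with Dot1l, which is not counted here, averaged 41.0 FPKM in sham and 30.9 in TBI, and cannot be assigned to either gene.

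In CA1, 4 Sf3 genes were higher and 4 lower, with a median of -0.01. Sf3b5, the smallest subunit of SF3b, was the most abundant, at 93.7, 73.8, 72.4 and 91.0 FPKM in sham 1 to 4 and at 102, 89.0, 82.9 and 90.4 in TBI 1 to 4. Sham 2 and sham 3 were low and the other libraries lay together, so the groups overlapped (log2 0.14, limma adjusted p = 0.891). Sf3b3 was the least abundant, at 14.6, 13.5, 14.6 and 14.3 FPKM in sham 1 to 4 and at 14.5, 12.4, 14.4 and 12.1 in TBI 1 to 4. TBI 2 and TBI 4 were low and TBI 1 and TBI 3 lay with sham (log2 -0.10, limma adjusted p = 0.891). The other 6 ranged from -0.05 for Sf3b1 to 0.06 for Sf3a2, and all had overlapping groups.

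The Sm proteins and the other particle proteins of the Snrp family leaned lower in WBC, with 6 of 8 lower, 2 higher and a median of -0.06, but with quantile normalization 6 were higher and 2 lower. None was at an unadjusted limma p under 0.05 in either direction. Snrpd2, a subunit of the Sm ring, was the most abundant, at 104, 108, 112 and 133 FPKM in sham 1 to 4 and at 97.8, 129, 100.1 and 107 in TBI 1 to 4. Sham 4 and TBI 2 stood above the rest (log2 -0.07). Snrpb, the Sm protein with a proline-rich tail, was at 76.4, 66.7, 86.3 and 83.0 FPKM in sham 1 to 4 and at 72.0, 68.7, 74.5 and 66.4 in TBI 1 to 4. Sham 3 and sham 4 were high and sham 2 lay at the level of TBI 4 (log2 -0.14 ± 0.10 (SE), limma adjusted p = 0.433, or 0.10 with quantile normalization). Snrpd1 averaged 10.1 FPKM in sham and 8.99 in TBI (log2 -0.16). The U2 particle proteins Snrpa1 and Snrpb2 averaged 18.8 FPKM in sham and 17.5 in TBI (log2 -0.10) and 29.4 FPKM in sham and 28.2 in TBI (log2 -0.05), and Snrpf differed by -0.01. Snrpg, the smallest Sm protein, had the largest log2 difference of any member, 0.61 ± 0.38 (SE), and did not pass (limma adjusted p = 0.409). Its libraries were at 3.83, 3.88, 12.0 and 11.5 FPKM in sham 1 to 4 and at 9.76, 13.6, 9.43 and 10.2 in TBI 1 to 4. Sham 1 and sham 2 stood at low values, and sham 3 and sham 4 stood within the range of the injured libraries. Snrpa averaged 3.15 FPKM in sham and 3.41 in TBI, and the row it shares with Mia averaged 13.2 FPKM in sham and 15.5 in TBI, so the member row holds part of its signal at most.

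In CA1, 4 Snrp genes were higher and 3 lower, with a median of 0.02. The lowest and the highest log2 difference of all CA1 members were both in this family. Snrpd2 was at 49.4, 43.1, 46.9 and 70.9 FPKM in sham 1 to 4 and at 49.0, 77.5, 59.5 and 65.8 in TBI 1 to 4. Sham 4 and TBI 2 were high here too, and the groups overlapped (log2 0.26 ± 0.18 (SE), limma adjusted p = 0.891). Snrpe was at 2.18, 1.99, 1.24 and 2.85 FPKM in sham 1 to 4 and at 1.02, 1.81, 1.96 and 1.58 in TBI 1 to 4, with its values spread in both groups (log2 -0.28 ± 0.22 (SE), limma adjusted p = 0.891). Snrpf, which joins Snrpe and Snrpg in the ring, was at 8.79, 8.73, 7.55 and 9.95 FPKM in sham 1 to 4 and at 10.4, 9.58, 9.75 and 9.58 in TBI 1 to 4. Sham 4 was as high as the injured libraries and sham 3 was the lowest (log2 0.16 ± 0.08 (SE), limma adjusted p = 0.891). Snrpb averaged 35.5 FPKM in sham and 33.6 in TBI (log2 -0.08). Snrpa, Snrpb2 and Snrpd1 differed by 0.03, -0.03 and 0.02, all with overlapping groups.

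The Prpf genes held the member with the smallest p. In WBC 6 of 12 were higher and 6 lower, with a median of 0.00, or 9 and 3 with quantile normalization. Of these genes, 3 were at an unadjusted limma p under 0.05 and higher, beside 7.82% of all rows. Groups did not overlap for 4, all with TBI higher, beside 5.61% of all rows. Prpf4b, a kinase that phosphorylates spliceosome proteins, was at 30.1, 29.2, 29.4 and 30.6 FPKM in sham 1 to 4 and at 38.8, 35.4, 40.6 and 40.5 in TBI 1 to 4. Every injured library stood well above the narrow range of sham. The means were 29.8 ± 0.656 FPKM in the sham libraries (SD, n = 4) and 38.8 ± 2.45 in the injured ones, and the log2 difference was 0.37 ± 0.07 (SE) (limma adjusted p = 0.127). Over the alternatives its log2 difference was 0.35 to 0.50 and its limma adjusted p 0.0966 to 0.232.

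Prpf40b, a protein of the U1 particle's surroundings at the start of the intron, was at 2.96, 3.81, 3.02 and 3.55 FPKM in sham 1 to 4 and at 4.72, 4.30, 4.04 and 4.92 in TBI 1 to 4. All injured libraries lay above sham, although sham 2 came close to TBI 3. The log2 difference was 0.38 ± 0.11 (SE) (limma adjusted p = 0.144). It was the least abundant Prpf gene in WBC. Prpf3, a tri-snRNP protein, was at 13.7, 15.7, 15.7 and 15.6 FPKM in sham 1 to 4 and at 17.0, 18.8, 16.5 and 17.6 in TBI 1 to 4. The groups did not overlap, and sham 1 stood below the other sham libraries (log2 0.20 ± 0.08 (SE), limma adjusted p = 0.195). Prpf38b, a relative of the spliceosome protein Prpf38a, was the most abundant, at 43.1, 46.3, 43.6 and 45.9 FPKM in sham 1 to 4 and at 47.6, 49.1, 51.1 and 48.9 in TBI 1 to 4. Its groups did not overlap either (log2 0.14 ± 0.06 (SE), limma adjusted p = 0.257).

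Lower in WBC were Prpf6, the protein that bridges the parts of the tri-snRNP, and Prpf18, which acts in the second step of splicing. Prpf6 was at 19.3, 18.7, 21.2 and 21.1 FPKM in sham 1 to 4 and at 17.1, 19.0, 18.4 and 17.2 in TBI 1 to 4. TBI 2 lay above sham 2, so the groups overlapped (log2 -0.16 ± 0.07 (SE), limma adjusted p = 0.265). Prpf18 was at 19.4, 23.5, 17.7 and 19.6 FPKM in sham 1 to 4 and at 18.9, 15.7, 19.2 and 14.8 in TBI 1 to 4. TBI 2 and TBI 4 were low and sham 2 was high (log2 -0.22 ± 0.12 (SE), limma adjusted p = 0.333). Prpf8, the scaffold at the catalytic centre, averaged 25.4 FPKM in sham and 25.6 in TBI (log2 0.01). Prpf19 averaged 44.6 FPKM in sham and 41.8 in TBI (log2 -0.09), and Prpf31, Prpf4 and Prpf38a differed by -0.04, 0.01 and -0.01, all with overlapping groups.

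In CA1, 4 Prpf genes were higher and 8 lower, with a median of -0.02. Prpf38b was at 12.8, 14.1, 13.4 and 14.8 FPKM in sham 1 to 4 and at 14.1, 15.9, 15.9 and 14.5 in TBI 1 to 4. TBI 2 and TBI 3 were high, and TBI 1 and TBI 4 lay within sham (log2 0.13 ± 0.07 (SE), limma adjusted p = 0.891). Prpf8 was at 29.3, 35.9, 35.5 and 32.7 FPKM in sham 1 to 4 and at 30.9, 29.6, 31.5 and 30.2 in TBI 1 to 4. Sham 1 lay with the injured libraries, and the other sham libraries were above them (log2 -0.12 ± 0.07 (SE), limma adjusted p = 0.891). Prpf18, Prpf6 and Prpf31 were lower by smaller steps, at -0.08, -0.06 and -0.06, with overlapping groups. Without sham 1 and TBI 1, 2 members were lower and 0 higher in CA1 at an unadjusted limma p under 0.05. Prpf19, the ubiquitin ligase of the activated spliceosome, was the most abundant member in CA1 per length and differed by 0.00, at 126 ± 4.12 FPKM in the sham libraries (SD, n = 4) and 126 ± 2.25 in the injured ones. Prpf3 was the least abundant Prpf gene, at 7.74 FPKM in sham. Prpf4b was at 10.5, 13.8, 13.5 and 12.8 FPKM in sham 1 to 4 and at 12.5, 13.3, 12.3 and 11.4 in TBI 1 to 4, with a log2 difference of -0.02. Sham 1 was the lowest of all, and sham 2 and sham 3 were the highest.

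The difference between tissues was tested by an interaction term, the WBC effect minus the CA1 effect, over 7639 genes that passed the filter in both tables, 46 of them members. The labels do not say whether CA1 and WBC libraries of equal number came from the same rat, and the test takes them as separate. No member passed in limma, where 0.419% of all genes did. At an unadjusted limma p under 0.05, 6 members had a WBC effect above the CA1 effect and 1 below, where 7.13% and 12.7% of all genes did. Prpf4b had the smallest p, with a term of 0.40 ± 0.11 (SE) (limma adjusted p = 0.0933). It passed when CA1 sham 1 was left out, at 0.48 (limma adjusted p = 0.0407), and with sample weights, at 0.47 (limma adjusted p = 0.0330). Over all the alternatives the term of Prpf4b was 0.35 to 0.51 and its limma adjusted p 0.0330 to 0.174. The other 5 were Prpf40b at 0.34, Srsf6 at 0.20, Hnrnpr at 0.34, Srsf1 at 0.26 and Srsf7 at 0.23 on the log2 scale. Their limma adjusted p ran from 0.111 to 0.252. Without WBC TBI 1, 3 members were above and 0 below at that level. With quantile normalization 13 were above, beside 10.3% of all genes, and 0 below, and the terms of Srsf6 and Srsf1 were 0.45 and 0.46. Hnrnpul1 had the term below 0, at -0.25 ± 0.11 (SE) (limma adjusted p = 0.230), but with quantile normalization it was -0.01 (limma adjusted p = 0.978). Next below 0 came Hnrnpl at -0.19, which was 0.11 with quantile normalization, then Snrpd2 at -0.34, which was -0.06 with it, Snrpd1 at -0.18 and Snrpf at -0.17.

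Over all genes 48.9% had a term above 0, or 46.2% with median-ratio scaling and 59.2% with quantile normalization. By family, all 10 Srsf genes tested had a term above 0, with a median of 0.20, where the median over all genes was -0.01. With median-ratio scaling 9 Srsf genes were above and 1 below, and with quantile normalization again 10, with a median of 0.43. Hnrnp genes split into 3 above and 8 below (median -0.06), which became 9 and 2 with quantile normalization (median 0.11). Snrp genes split into 1 and 5 (median -0.12), or 3 and 3 with quantile normalization. The Snrp gene above 0 without rescaling was Snrpa, whose WBC row holds part of its signal at most. Sf3 genes split into 2 and 5 (median -0.02), or 7 and 0 with quantile normalization. Prpf genes split into 9 and 3 (median 0.02), or 10 and 2 with quantile normalization and 7 and 5 with median-ratio scaling (median 0.0034). The median over all 46 members was 0.01, or -0.01 with median-ratio scaling and 0.15 with quantile normalization.

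**Figure D4:**
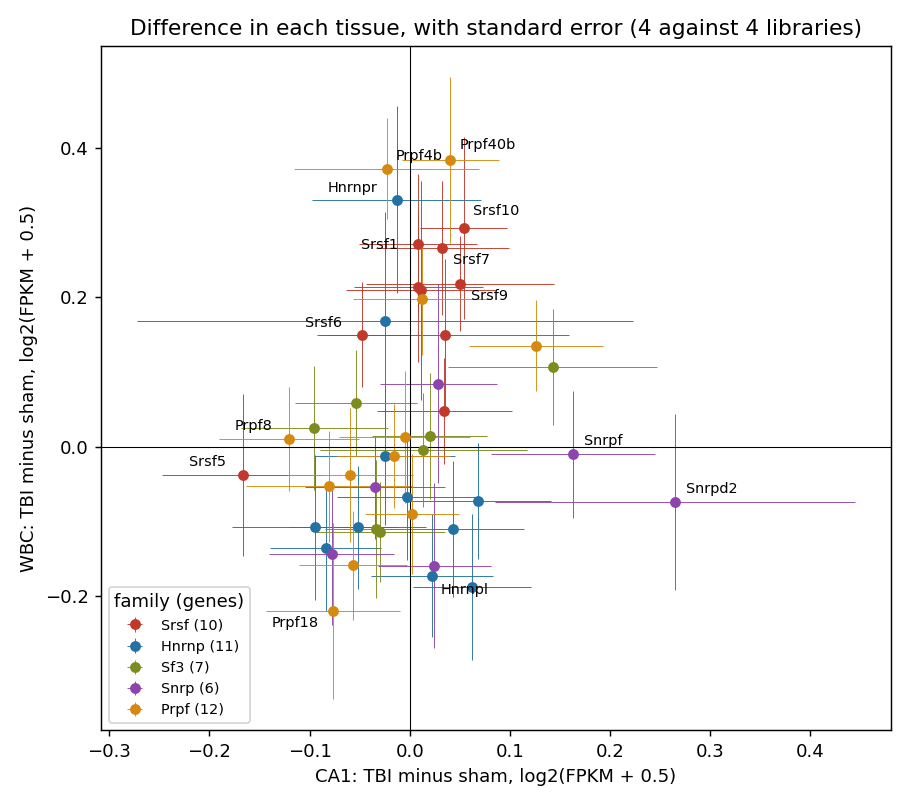
TBI minus sham on the log2(FPKM + 0.5) scale for each of the 46 members tested in both tissues, CA1 on the horizontal and WBC on the vertical axis, coloured by family, with standard errors as bars. Points spread more along the WBC axis, and Prpf4b and Prpf40b lie highest, at 0.37 and 0.38 in WBC against -0.02 and 0.04 in CA1.

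Related genes were also set against each other as ratios of FPKM within a library, for 5 pairs picked after their values were seen, so no test is given. In 4 of the 5 pairs the CA1 and WBC libraries did not overlap, and in Srsf12 to Srsf10 they did. Prpf38b and Prpf38a stood about level in CA1, at a ratio of 0.987 ± 0.0598 in sham, while in WBC sham the ratio was 2.66 ± 0.111. Hnrnpf to Hnrnph2, a pair that binds runs of G, was 0.515 ± 0.0351 in CA1 sham and 2.94 ± 0.176 in WBC sham. Hnrnpa1 to Hnrnpa2b1 was 0.426 ± 0.0576 and 0.978 ± 0.112. Srsf12 to Srsf10 and Srsf9 to Srsf1 were closer between the tissues, at 0.407 ± 0.0441 and 0.337 ± 0.0302 in CA1 sham and 0.368 ± 0.0690 and 0.438 ± 0.0567 in WBC sham. Across the 46 members the sham means of the tissues had a Spearman's rho of 0.79, as a description of genes that share transcript length and 2 sets of libraries. Prpf19 stood at rank 1 of 46 in CA1 and 20 in WBC, while Srsf6 stood at rank 27 and 9.

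**Figure D5:**
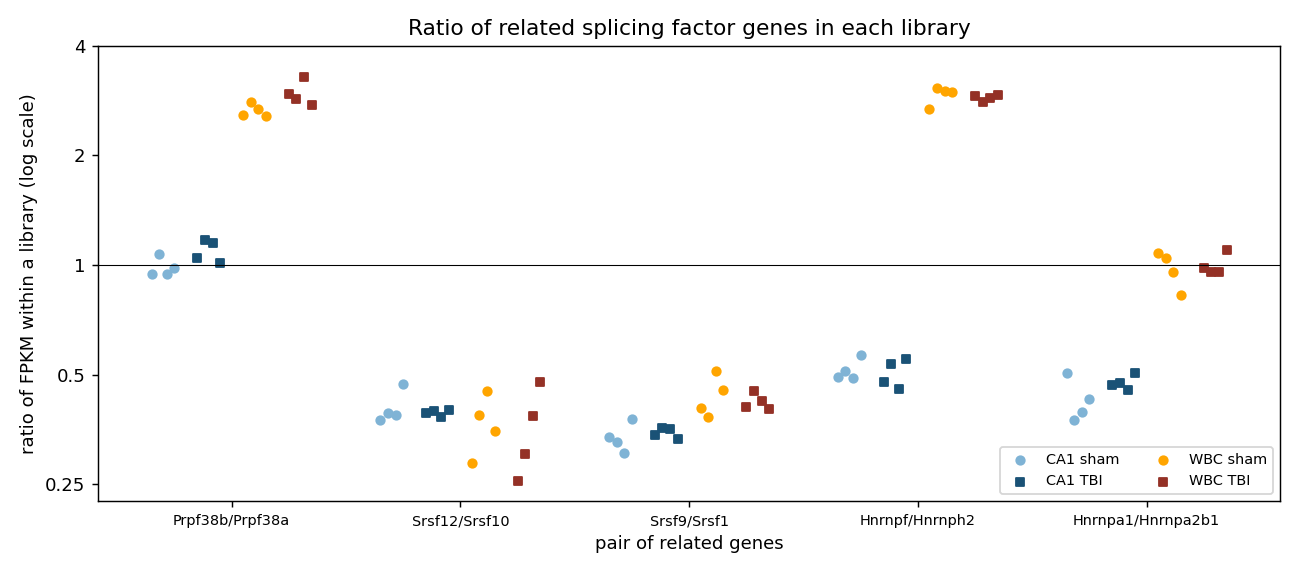
Ratio of FPKM between related splicing factor genes within each library, on a log axis, by tissue and group. CA1 and WBC lie apart for Prpf38b/Prpf38a, Hnrnpf/Hnrnph2 and Hnrnpa1/Hnrnpa2b1, lie next to each other without overlap for Srsf9/Srsf1, and overlap for Srsf12/Srsf10.

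Other genes of the splicing machinery were counted from lists that name them by role, and 0 of them passed in limma in either tissue. Over all WBC rows, 7.82% were higher and 12.5% lower at an unadjusted limma p under 0.05. Groups did not overlap with TBI higher for 5.61% of these rows. Of the same rows 49.6% were higher in TBI, or 58.2% with quantile normalization. In WBC, the list of splice site recognition factors had 18 of 28 tested genes higher and 10 lower (median 0.09), or 25 and 3 with quantile normalization, with 5 higher and 1 lower at an unadjusted limma p under 0.05. Luc7l3, a partner of the U1 particle, averaged 16.5 FPKM in sham and 22.6 in TBI (log2 0.45), and Tra2a, an SR-like exon activator, 36.5 and 46.5 (log2 0.35). Both had groups that did not overlap and a limma adjusted p of 0.132. Genes of the snRNP particles outside the Snrp prefix, such as Snrnp70, the U1 protein that contacts SR proteins, were 15 higher and 12 lower of 27 (median 0.01), or 21 and 6 with quantile normalization, with 3 and 0 at that level. Snrnp70 averaged 204 and 261 FPKM (log2 0.35, limma adjusted p = 0.161), and Snrnp48 of the minor spliceosome 27.5 and 34.9 (log2 0.34). The kinases of SR proteins were 6 higher and 2 lower of 8 (median 0.11), or 8 and 0 with quantile normalization, with 0 at that level in either direction. The smallest p among them were those of Clk4 (30.5 FPKM in sham and 34.1 in TBI, log2 0.16) and Clk1 (138 FPKM in sham and 159 in TBI, log2 0.22).

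The catalytic spliceosome list leaned the other way in WBC, with 11 higher and 17 lower of 28 (median -0.05), but with quantile normalization it had 16 higher and 12 lower. At an unadjusted limma p under 0.05, 2 were higher and 3 lower, where 7.82% and 12.5% of all rows were. Bcas2, a subunit of the Prp19 complex, averaged 1122 FPKM in sham and 652 in TBI (log2 -0.82, limma adjusted p = 0.143). Ddx23, a helicase of the U5 particle, averaged 56.2 and 42.8 (log2 -0.40, limma adjusted p = 0.157). The exon junction complex and its decay partners were 6 higher and 7 lower of 13 (median -0.01), or 9 and 4 with quantile normalization, with 0 and 1 at that level. Their smallest p were those of Upf3a (29.4 FPKM in sham and 20.3 in TBI, log2 -0.54) and Rbm8a (23.0 FPKM in sham and 20.1 in TBI, log2 -0.18). The tissue regulators were 11 and 11 of 22 (median 0.01), or 14 and 8 with quantile normalization, with 1 and 4, among them Mbnl2 at 14.4 and 11.5 FPKM and Rbm38, an RNA-binding protein known from red cell maturation, at 1104 and 615.

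In CA1 the same lists stayed near 0, with medians of 0.02 for the snRNP particles, 0.02 for splice site recognition, 0.03 for the kinases, -0.01 for the catalytic list, -0.02 for the exon junction list and -0.06 for the tissue regulators. At an unadjusted limma p under 0.05 they held 1, 2, 0, 0, 0 and 0 genes higher and 0, 1, 0, 1, 0 and 1 lower, in that order. Over all CA1 rows, 2.54% were higher and 2.6% lower at that level. Of the 2 splice site recognition genes counted as higher, Ddx39b has no steady level, which leaves Rbm5. The smallest p of the particle list were those of Snrnp48 (6.05 FPKM in sham and 7.30 in TBI, log2 0.26) and Lsm7 (63.7 FPKM in sham and 70.2 in TBI, log2 0.14), and of the kinases those of Clk1 (14.5 FPKM in sham and 17.4 in TBI, log2 0.24) and Clk4 (6.34 FPKM in sham and 7.56 in TBI, log2 0.22). In the catalytic list they were Cwc27 (7.05 FPKM in sham and 6.35 in TBI, log2 -0.14) and Bud31 (57.2 FPKM in sham and 63.4 in TBI, log2 0.14), and in the exon junction list Magoh (30.3 FPKM in sham and 33.7 in TBI, log2 0.16) and Upf2 (12.0 FPKM in sham and 10.7 in TBI, log2 -0.15). Among the tissue regulators they were the neuronal Rbfox3, at 105 and 92.7 FPKM (log2 -0.18), and Celf2 (46.7 FPKM in sham and 41.3 in TBI, log2 -0.17). For splice site recognition they were Rbm5 (21.5 FPKM in sham and 23.5 in TBI, log2 0.13) and Ddx39b. The row of the helicase Ddx39b was listed at 0 in all 4 sham libraries and in TBI 3 and at 826 to 1968 FPKM in the other 3 TBI libraries, which no gene level is read from here.

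Markers of some blood cells differed with the groups in WBC. T cell markers were 7 higher and 2 lower in TBI, monocyte markers 2 and 5, and neutrophil markers 3 and 6. The sums of these lists overlapped between sham and TBI. With quantile normalization their tested markers were 8 and 0, 5 and 1, and 3 and 5, in that order. All 14 erythroid markers in the table were lower in TBI, with a summed level of 12942 to 20030 FPKM in sham and 5152 to 12462 in TBI, and none was at 0. All 8 platelet markers were lower, with sums of 7218 to 9761 and 2216 to 6500. All 8 markers of natural killer and cytotoxic cells were higher, at 210.5 to 271 in sham and 241 to 428 in TBI. All 5 B cell markers were lower, at 635 to 840.0 and 420.1 to 778. Of 6 general leukocyte markers 5 were lower, with sums of 2516 to 2941 and 1914 to 2248. By far the largest step among them was that of Cd52, at 961 FPKM in sham and 486 in TBI. Also lower were Coro1a at 794 and 748, Laptm5 at 281 and 266, Cd53 at 248 and 229 and Itgb2 at 142 and 125. Ptprc was higher, at 289 and 300. With quantile normalization, however, 4 of the 5 B cell markers and 5 of the 6 leukocyte markers were higher. The erythroid sums of TBI 1 to 4 were 5152, 11286, 12462 and 9456 FPKM, their platelet sums 2216, 5070, 6500 and 5740, and their Srsf medians 0.30, 0.02, 0.21 and 0.19. The Srsf medians of sham 1 to 4 were -0.02, -0.01, -0.02 and 0.04. The part of these cell types in the differences of the splicing factor genes was not tested.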

How the data were processed

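Per the labels' protocols, mRNA was enriched by poly-A selection from about 1000 ng of total RNA, primed at random and sequenced on a HiSeq. Each tissue has 1 deposited table, in which the authors give FPKM and a status for every row and library. The submitters' processing notes name TopHat, TopHat2, Bowtie, Bowtie2, Cufflinks and Cuffdiff and the rat build rn5. Not given in the sources used here are versions, roles, the annotation and how library size was set. No fragment counts can be read from FPKM, so depth is unknown and no counting interval is given.

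The members and lists were chosen with earlier results of these data known. Rows with a mean of at least 1 FPKM and an OK status in all 8 libraries of a tissue were taken to log2(FPKM + 0.5), which understates changes of low genes. TBI was compared with sham by limma 3.58.1 (lmFit and trended eBayes, 2-sided). P-values were adjusted by Benjamini-Hochberg over all rows tested, and the threshold was 0.05. The interaction model gave each tissue its own means. The script was tested on simulated data. Named genes are the 8 members with the smallest p in each direction and tissue, the 5 in each direction of the interaction, the most and least abundant of each family and the 2 of smallest p in each other list. Srsf2, Srsf4, Srsf6, Srsf11, the paralog pairs and others were described after their values were seen. As alternatives the pseudocount was set to 0.1 or 1, the filter was dropped or raised to 5 FPKM, and values were rescaled by median ratios or by quantile normalization. Others were limma with sample weights, with robust variances or untrended, rows of every status or of 1 symbol, equal library numbers as a block, an adjusted p of 0.1, and each library left out. Counts at an unadjusted p and CA1 without sham 1 and TBI 1 were added after the data were seen. Values of 1 member are not reported here. Promoters are from RefSeq (GRCr8). Software was R 4.3.3 and Python 3.11.15.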

Additional observations from a re-analysis of the deposited data

Results flagged for a closer look

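Among WBC sham libraries, sham 1 stood apart for Prpf3, at 13.7 FPKM, where the nearest of the others was at 15.6 and the highest at 15.7. It was the only such library in 88 groups of 4 libraries examined over the tested and named members, or 1.14%, and chance flags about 1 in 20 groups. Prpf3 was no longer at an unadjusted limma p under 0.05 without WBC sham 1, and likewise without WBC TBI 2 or TBI 4.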

How the results depend on the processing

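The count of members that passed stayed at 0 in CA1 and in WBC under every alternative run. In the interaction it was 1, Prpf4b, with sample weights, with an adjusted p threshold of 0.1 and without CA1 sham 1, and leaving out 1 library gave 0 to 1. Quantile normalization moved WBC most. The median over all WBC rows shifted from 0.00 to 0.05, the member median from -0.01 to 0.12 (interaction 0.15), and the members higher at an unadjusted limma p under 0.05 from 8 to 15 (interaction from 6 to 13 above and from 1 to 0 below). It reversed Hnrnpf (0.12), Hnrnpl (0.13), Hnrnpul1 (0.0578), Sf3b4 (0.000589) and Snrpb (0.10) in WBC and Hnrnpl (0.11) in the interaction. The cause was not tested.

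At the unadjusted level, sample weights gave 2 members higher and 2 lower in CA1, 1 lower in WBC and 2 below in the interaction. Median-ratio scaling gave 1 lower in WBC and 2 below in the interaction, and no filter gave 1 lower in WBC. Without CA1 sham 1 and TBI 1 together, 2 were lower in CA1. Leaving out 1 library gave 0 to 2 higher and 0 to 2 lower in CA1, 6 to 9 higher and 0 to 4 lower in WBC (4 without sham 2), and 3 to 8 above and 0 to 3 below in the interaction. Member medians then ran from -0.01 to 0.02 in CA1 and from -0.05 to 0.02 in WBC.

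Equal numbers did not meet the mark for pairing, every correlation over 0.1. Deviations of same-numbered sham and TBI libraries correlated at 0.02 to 0.24 in CA1 and at -0.01 to 0.15 in WBC, and not every library correlated best with its own number. Between CA1 and WBC, equal numbers correlated at 0.07 to 0.21, and all 8 CA1 libraries correlated best with their own number within the group, a hint from the data and not from the design. With the numbers as a replicate block, 1 member was lower in CA1 and 7 were higher in WBC at the unadjusted level, and 0 passed. In the interaction, with CA1 and WBC libraries of equal number as a replicate block, 5 were above and 1 below at that level, 0 passed, and Prpf4b was at 0.40 (limma adjusted p = 0.134).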
